A study of Homo sapiens with 24 samples.

Results

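The keratin genes KRT5, KRT15, KRT16 and KRT17 and the genes TRIM29, FAT2 and NGFR were followed through induction of p63 in TYUC-1 cells, a human line from a neuroendocrine carcinoma of the esophagus that grows in suspension. These 7 genes, of 28278 in the count table, were chosen from their measured levels by day and by line, so their levels and changes are given as a description, with no p-value. All 7 passed the filter on low counts and are among 15642 genes tested. By its title, the study concerns p63 and the passage between squamous and neuroendocrine states of the esophagus.

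RNA was sequenced from 2 engineered lines, labelled i-TAp63 and i-DNp63, in which doxycycline at 1 µg/ml induces TAp63 or ΔNp63. Each line had 4 groups: day 0 (DMSO, the vehicle, for 6 days), day 1 (5 days of DMSO and 1 day of doxycycline), day 3 (3 days of each) and day 6 (6 days of doxycycline). Each of the 8 groups had 3 libraries. A further label on every sample gives EPZ-6438, which inhibits EZH2, the H3K27 methyltransferase of PRC2, over the same number of days as doxycycline, but neither the title nor the induction field nor the series design mentions it. Days of induction and days of the inhibitor, if it was used, cannot be told apart. A doxycycline control lacking either construct was not analysed here. The labels do not say whether a line is 1 clone or how replicate cultures were separated, so calls rest on the spread between these libraries.

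TP63 encodes TAp63, which has an N-terminal transactivation domain, and ΔNp63, made from an internal promoter and the main form in basal cells of stratified squamous epithelia. Keratins assemble as pairs of a type II and a type I chain. In the basal layer the type II chain KRT5 pairs with KRT14, or in esophagus also with KRT15, whereas simple epithelia use KRT8 with KRT18. KRT16 and KRT17 are type I keratins of wounded and stressed squamous epithelium. TRIM29 is a tripartite motif protein abundant in basal squamous cells, FAT2 is an atypical cadherin of squamous epithelia, and NGFR, the low-affinity neurotrophin receptor, marks basal progenitors of the esophagus.

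KRT5 lies on chromosome 12 (hg38, 52514575 to 52520394, minus strand), TRIM29 on chromosome 11 (120111286 to 120138113, minus) and FAT2 on chromosome 5 (151504092 to 151568944, minus). The other 4 lie on chromosome 17: KRT15 (41513745 to 41518890, minus), KRT16 (41609779 to 41612767, minus), KRT17 (41619442 to 41624575, minus) and NGFR (49495293 to 49515005, plus). KRT16 and KRT17 stand 6674 bases apart in the type I keratin cluster, and 90888 bases separate KRT15 from KRT16. Reads were counted over these whole spans, introns included, without a strand setting. NGFR overlaps LOC100288866, which had 147 counts over all libraries, so fragments in the overlap were given to neither gene, and GENCODE 29 places an antisense gene in FAT2. Of the 50-base stretches of the longest coding transcript, 22% in KRT16 and 16% in KRT17 also occur in transcripts of other genes, against 3.99% in KRT5, 0.328% in KRT15 and 0% in TRIM29, FAT2 and NGFR. Levels of KRT16 and KRT17 are therefore uncertain, since the sharing genes are KRT14 and pseudogenes, of which KRT16P3 had the most counts, 112 over all libraries.

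The RefSeq promoter table (GRCh38.p14) holds KRT5 and FAT2, the first being the gene with the largest change here. The 250 bases before each start are shown because p63 reads DNA through paired p53-family half-sites, whose core can be CATG. Capitals mark CATG, which reads the same on both strands. The KRT5 stretch is chr12:52520395-52520644 and the FAT2 stretch chr5:151591332-151591581, both on the minus strand. The FAT2 start used by RefSeq lies upstream of the span that was counted.
KRT5 upstream: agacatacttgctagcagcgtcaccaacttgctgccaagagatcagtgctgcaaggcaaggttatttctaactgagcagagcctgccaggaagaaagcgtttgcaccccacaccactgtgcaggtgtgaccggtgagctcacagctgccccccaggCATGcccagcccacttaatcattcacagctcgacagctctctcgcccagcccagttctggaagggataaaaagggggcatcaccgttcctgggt
FAT2 upstream: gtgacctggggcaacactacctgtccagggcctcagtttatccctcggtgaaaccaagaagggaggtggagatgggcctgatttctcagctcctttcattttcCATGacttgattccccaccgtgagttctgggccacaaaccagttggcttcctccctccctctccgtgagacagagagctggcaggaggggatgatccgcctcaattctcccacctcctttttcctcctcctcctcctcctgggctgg
Each held a single CATG, 94 bases before the start in KRT5 and 147 bases before it in FAT2. At least 1 CATG was present in 47.6% of 35116 promoters of the same length. Neither held CATGNNNNNNCATG (0.296% of promoters) or the CWWG pair with 6 bases between, in which the middle letters are each A or T (4.02%). These matches describe the letters in a window and are not sites of measured binding.

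Library totals ran from 1530847 to 22019974 counts. The lowest total belonged to replicate 3 of ΔNp63 day 1, with the next at 6375963. This library scored -193.9 on the first principal component, against -17 to 24.95 for the remaining 23, and had 1730 CPM of the fetal globin gene HBG2, CPM being counts scaled to the normalised library total. It enters every estimate of spread, so counts are also given without it. TP63 was at 2.93 ± 0.0361, 371 ± 45.1, 558 ± 92.8 and 655 ± 41.3 CPM at days 0, 1, 3 and 6 of the TAp63 line, and at 4.35 ± 0.517, 455 ± 342, 865 ± 140 and 926 ± 100 CPM in the ΔNp63 line (SD, n = 3 each). Without replicate 3, TP63 averaged 649 CPM at day 1 of the ΔNp63 line. Its day 6 change was 7.80 ± 0.57 on the log2 scale in the TAp63 line (edgeR quasi-likelihood test, Benjamini-Hochberg adjusted p = 7.124e-08) and 7.74 ± 0.56 in the ΔNp63 line (adjusted p = 5.236e-08), where ± is the standard error, as for every log2 change here. Of the labelled tumour type's markers, INSM1 and CHGA stayed under 1 CPM over the group means, at most 0.434 and 0.683 CPM (day 1 of the ΔNp63 line taken without replicate 3), and NEUROD1 and SYP reached at most 4.51 and 4.36 CPM. The epithelial markers EPCAM and CDH1 were at 399 CPM or more and 380 CPM or more.

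A gene was called where its adjusted p over all genes tested was under 0.05. By this rule NGFR alone of the 7 was called in the TAp63 line, at day 1. Its libraries there also lay above day 0 without overlap at days 3 and 6, as did those of KRT5 and KRT16 at day 6. KRT5 had at most 12 counts per library at days 0 and 6 of that line. The share of all genes whose libraries separate in this way is not given. Here and below, lack of overlap therefore only describes the libraries and is no second test. In the ΔNp63 line KRT5, KRT15, TRIM29 and FAT2 were called higher at day 6, with the largest change in KRT5. NGFR was called there at day 3 and stood lower at day 6. Of the 7 genes, the TAp63 line had 1 called at day 1 (0.121% of all genes were called), 0 at day 3 (0.435%) and 0 at day 6 (0.441%). The ΔNp63 line had 0 called at day 1 (0.0959% of all genes), 4 at day 3 (2.2%), namely KRT5, KRT15, TRIM29 and NGFR, and 4 at day 6 (2.03%), namely KRT5, KRT15, TRIM29 and FAT2. All these calls were higher. At an unadjusted p under 0.05, 1 of the 7 passed at day 3 of TAp63, 2 at day 6 of TAp63 and 1 at day 1 of ΔNp63. By DESeq2 these 3 counts were 1, 0 and 0. Without ΔNp63 day 1 replicate 3, 4 passed an unadjusted p under 0.05 at day 1 of ΔNp63: KRT5, KRT15, TRIM29 and NGFR. Here and below, counts at an unadjusted p and by DESeq2 stand without the share of all genes passing the same rule. They therefore have no background to be read against. The 6 counts of called genes were the same without that library, and the same with the replicate number as a block. More genes in all were then called: 6.34% and 4.97% at days 3 and 6 of ΔNp63 without that library, and 6.89% and 4.56% with the block. With both changes together the TAp63 line had 1, 2 (KRT15 and NGFR) and 1 (KRT16) called at days 1, 3 and 6, where 0.887%, 4.57% and 3.6% of all genes were called. The ΔNp63 line then had 2 (KRT15 and NGFR), 4 and 6 (with KRT17 and NGFR added), where 0.849%, 23.5% and 14.1% of all genes were called. Since the genes were chosen on these contrasts, their share above the background is not a result. The median log2 change over the 7 was 0.50 at day 6 of TAp63, 1.65 at day 3 of ΔNp63 and 2.02 at day 6 of ΔNp63, where the medians of all genes were -0.0132, -0.0137 and -0.00693. In a bulk culture, more cells with a transcript and more transcript per cell cannot be told apart.

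KRT5, the basal type II keratin, had 0.462, 0.387 and 0.637 CPM in the 3 day 0 libraries of the TAp63 line, 0.389, 0.421 and 0.393 CPM at day 1, 0.621, 0.635 and 0.128 CPM at day 3 and 0.643, 0.75 and 0.741 CPM at day 6. All 12 of these libraries were under 1 CPM. The ΔNp63 line had 0.659, 0.738 and 0.525 CPM at day 0, 0.579, 1.68 and 0 CPM at day 1, 7.95, 7.7 and 6.96 CPM at day 3 and 26.3, 19.7 and 21.3 CPM at day 6. The day 3 libraries all lay above day 0 and day 1, and the day 6 libraries all above day 3, while the 0 at day 1 is the library that stood apart. The largest change of KRT5 in the TAp63 line was 0.50 ± 0.44, at day 6 (not called, although its day 6 libraries just cleared those of day 0). The change from day 0 in the ΔNp63 line was 0.71 ± 0.42 at day 1 (not called), 3.53 ± 0.38 at day 3 and 5.11 ± 0.39 at day 6, a 34.5-fold rise. In the ΔNp63 line day 3 held 31.6% of the gain that day 6 showed over day 0 in mean CPM.

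The difference between the lines' responses, TAp63 minus ΔNp63, was -3.52 ± 0.60 for KRT5 at day 3 and -4.61 ± 0.59 at day 6, both called. In the main model, with all libraries and no block, KRT5 was the only one of the 7 called in either contrast. There 0.0448% of all genes were called at day 3 and 0.0831% at day 6. Without ΔNp63 day 1 replicate 3, TRIM29 was called as well at day 3 (-1.42) and day 6 (-1.88). In that fit 0.127% and 0.279% of all genes were called. DESeq2 (-1.89) and a fit of the compared groups alone (-1.88) also called TRIM29 at day 6. Of 12 fits that each left out 1 library compared, 0 called TRIM29 at either day. With the replicate number as a block TRIM29 was called as well at day 6, where 0.166% of all genes were called. With ΔNp63 day 1 replicate 3 also left out, KRT15 (-1.19) and TRIM29 (-1.39) were called beside KRT5 at day 3, where 0.944% of all genes were called. In that fit KRT15 (-1.54), TRIM29 (-1.85) and FAT2 (-1.41) were called beside KRT5 at day 6, where 1.87% were called. The day 6 call of KRT5 was made with any 1 of the 12 libraries left out. The day 3 call of KRT5 was lost without any 1 of the 12 libraries compared, with values of -3.87 to -3.21. It was also lost in a fit of the compared groups alone, at -3.50.

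TRIM29, the tripartite motif gene, had 32.5, 22.4 and 25.2 CPM at day 0 of the TAp63 line, 25.9, 16.4 and 17.3 CPM at day 1, 24.1, 31.1 and 38 CPM at day 3 and 30.3, 33.7 and 33.2 CPM at day 6. Its day 0 libraries overlap those of every later day. The ΔNp63 line had 24.5, 32.8 and 23.6 CPM at day 0, 34.9, 40.1 and 7.32 CPM at day 1, 94.9, 79.9 and 80.1 CPM at day 3 and 129, 122 and 116 CPM at day 6. Here day 3 lay above day 0, and day 6 above day 3, without overlap. The TAp63 change at day 6 was 0.29 ± 0.29 (not called). The ΔNp63 change was 1.65 ± 0.29 at day 3 and 2.18 ± 0.29 at day 6, a 4.53-fold rise. The difference between the lines at day 6, -1.89 ± 0.41, was not called. It was called with the replicate number as a block (-1.88) and without ΔNp63 day 1 replicate 3 (-1.88). Of 12 fits that each left out 1 library compared, 0 called it.

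KRT15, the type I keratin of esophageal basal cells, had 11.9, 8.17 and 5.94 CPM at day 0 of the TAp63 line, 8.88, 7.3 and 6.03 CPM at day 1, 16.2, 12.7 and 10.7 CPM at day 3 and 13, 11.3 and 10.7 CPM at day 6. Replicate 1 was highest and replicate 3 lowest at each of these 4 days, and the libraries of day 0 overlap those of every later day. The ΔNp63 line had 11.7, 6.25 and 6.43 CPM at day 0, 14.3, 15.3 and 0.665 CPM at day 1, 34.2, 28.8 and 23.2 CPM at day 3 and 39.7, 29.7 and 28.4 CPM at day 6. Here days 3 and 6 lay above day 0 without overlap and overlapped each other. The change in the TAp63 line was 0.65 ± 0.38 at day 3 and 0.47 ± 0.38 at day 6 (not called). The change in the ΔNp63 line was 1.83 ± 0.37 at day 3 and 2.02 ± 0.38 at day 6. The day 3 call was lost without day 0 replicate 2 (1.67) or day 0 replicate 3 (1.69). Unlike KRT5, of whose day 6 gain 31.6% was present at day 3, KRT15 had 84.1% of its gain by then, and TRIM29 60.8%. The difference between the lines' KRT15 responses at day 6 was -1.55 ± 0.53, which was called only in the fit with both the block and ΔNp63 day 1 replicate 3 left out.

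FAT2, the atypical cadherin, moved less. It had 1.23, 1.55 and 1.49 CPM at day 0 of the TAp63 line, 1.01, 1.4 and 1.05 CPM at day 1, 1.34, 1.36 and 1.54 CPM at day 3 and 1.79, 0.813 and 1.02 CPM at day 6. These libraries overlap, with the highest and the lowest both at day 6. The ΔNp63 line had 0.905, 1.42 and 1.12 CPM at day 0, 1.3, 1.63 and 0.665 CPM at day 1, 1.96, 1.73 and 1.69 CPM at day 3 and 2.49, 2.66 and 2.53 CPM at day 6. Each of the last 2 steps, from day 0 to day 3 and from day 3 to day 6, was free of overlap. The TAp63 change at day 6 was -0.26 ± 0.30 (not called). The ΔNp63 change was 0.63 ± 0.29 at day 3 (not called) and 1.14 ± 0.29 at day 6 (called), a 2.21-fold rise. The day 6 call was lost without any 1 of the 6 libraries compared, at 1.01 to 1.33, and also without a filter on low counts or with the compared groups alone (1.13 each).

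**Figure D1:**
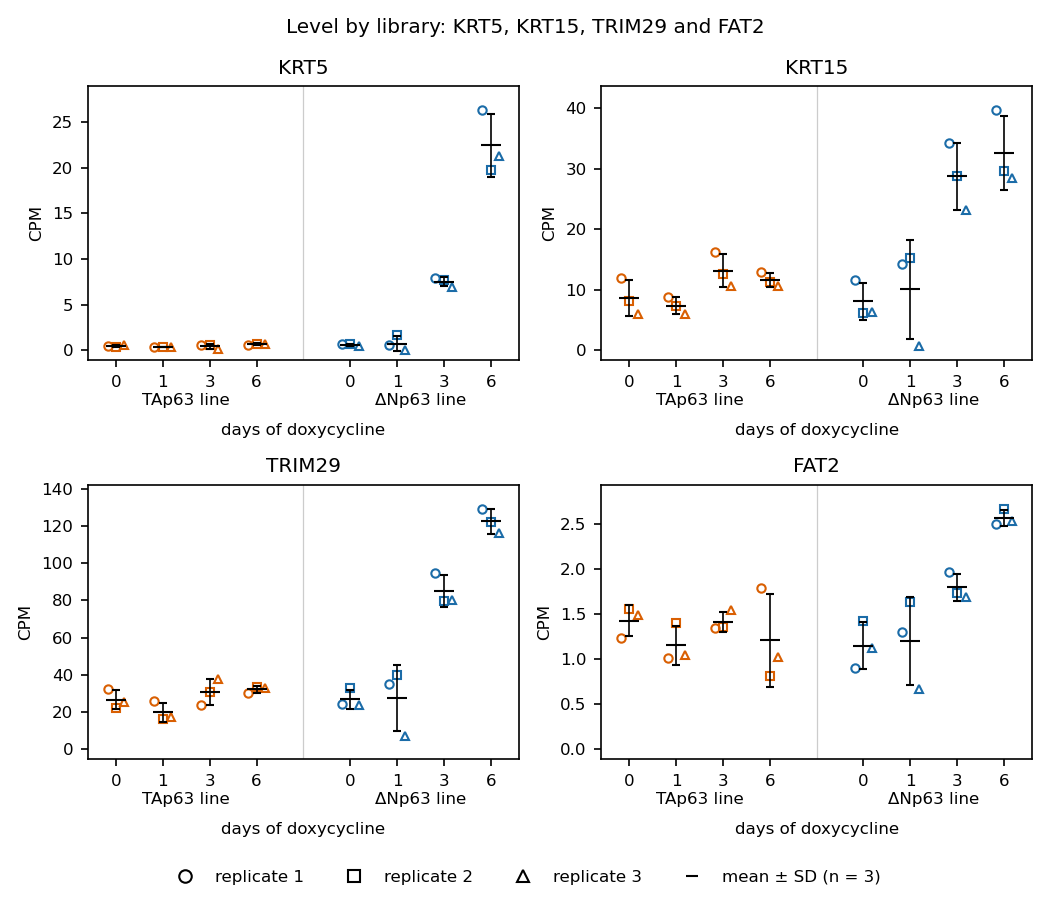
CPM of KRT5, KRT15, TRIM29 and FAT2 (vertical axes) by days of doxycycline in the TAp63 line (orange, left) and the ΔNp63 line (blue, right), 1 symbol per library by replicate number, with mean ± SD of n = 3. At day 6 the KRT5 mean was 0.711 CPM in the TAp63 line and 22.5 CPM in the ΔNp63 line, and the low triangles at ΔNp63 day 1 are the library that stood apart.

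NGFR had another course: it was called at day 1 in the TAp63 line and at day 3 in the ΔNp63 line, and at day 6 its level was lower again in both lines, though not called against day 3. The later first call in the ΔNp63 line did not hold in every fit. With day 1 replicate 3, the library that stood apart, left out and the replicate block added, NGFR was called at day 1 there too (2.82). Neither change alone gave that call. In the TAp63 line it had 0, 0.0483 and 0.212 CPM at day 0 (0, 1 and 4 counts), 0.467, 3.27 and 1.05 CPM at day 1, 0.724, 0.816 and 1.67 CPM at day 3 and 0.357, 0.375 and 0.556 CPM at day 6. Every library of days 1, 3 and 6 lay above every day 0 library, and every day 6 library below every day 3 library. In the ΔNp63 line it had 0.165, 0.227 and 0.131 CPM at day 0, 1.52, 0.951 and 0 CPM at day 1, 1.65, 1.95 and 2.51 CPM at day 3 and 0.701, 1.08 and 1.26 CPM at day 6. Days 3 and 6 were above day 0 and did not overlap each other, and at day 1 replicates 1 and 2 also lay above every day 0 library.

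The log2 change of NGFR in the TAp63 line was 3.87 ± 0.74 at day 1 (called), 3.18 ± 0.77 at day 3 and 1.91 ± 0.82 at day 6 (neither called). DESeq2 called the day 3 change (3.31), as did edgeR once the replicate block was added and the library that stood apart was dropped (3.16). The day 1 call rests on single libraries: it was lost without day 1 replicate 2, which held 70 of the 84 counts of that day (2.68), and without day 0 replicate 1 (3.62), 2 (3.43) or 3 (5.22). In the ΔNp63 line the change was 2.53 ± 0.72 at day 1, 3.46 ± 0.68 at day 3 (called) and 2.44 ± 0.72 at day 6. With so few counts at day 0 these folds are imprecise. The difference between the lines' responses, -0.28 ± 1.30 at day 3 and -0.53 ± 1.24 at day 6, was smaller than its standard error. Day 6 against day 3 gave -1.27 ± 0.65 in the TAp63 line and -1.03 ± 0.58 in the ΔNp63 line, neither called.

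KRT16, a type I keratin of wounded epithelium, was not called in either line. It had 1.85, 2.32 and 1.49 CPM at day 0 of the TAp63 line, 2.65, 2.67 and 2.23 CPM at day 1, 4.66, 2.54 and 2.05 CPM at day 3 and 4.93, 3.81 and 2.41 CPM at day 6. The day 6 libraries lay above those of day 0 without overlap, replicate 3 by the least. In the ΔNp63 line the values were 2.3, 3.35 and 1.71 CPM at day 0, 2.39, 2.49 and 0.665 CPM at day 1, 3.36, 2.18 and 2.13 CPM at day 3 and 2.49, 2.16 and 2.05 CPM at day 6, overlapping throughout. The day 6 change was 0.98 ± 0.35 in the TAp63 line and -0.13 ± 0.36 in the ΔNp63 line. Their difference, 1.11 ± 0.50, was not called. It was the only positive one of the 7 at day 6.

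KRT17, its neighbour, had 1.23, 0.87 and 0.425 CPM at day 0 and 2.14, 1.31 and 0.37 CPM at day 6 of the TAp63 line, which overlap. The ΔNp63 line had 1.73, 2.1 and 1.12 CPM at day 0 and 2.96, 3.52 and 2.84 CPM at day 6, without overlap. At days 1 and 3 KRT17 averaged 0.849 and 1.27 CPM in the TAp63 line and 1.06 and 2.17 CPM in the ΔNp63 line. Without replicate 3, the library that stood apart, the ΔNp63 day 1 mean was 1.58 CPM. The day 6 changes, 0.71 ± 0.55 in the TAp63 line and 0.92 ± 0.50 in the ΔNp63 line, were not called. Before induction KRT17 averaged 0.842 ± 0.405 CPM in the TAp63 line and 1.65 ± 0.497 CPM in the ΔNp63 line (SD, n = 3 each), a log2 difference of -1.06 ± 0.54, with overlapping libraries. The other 6 genes differed by at most 0.69 in size at day 0, and 0 of the 7 were called there by edgeR, by DESeq2 or at an unadjusted p under 0.05 (0.0128% of all genes were called).

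**Figure D2:**
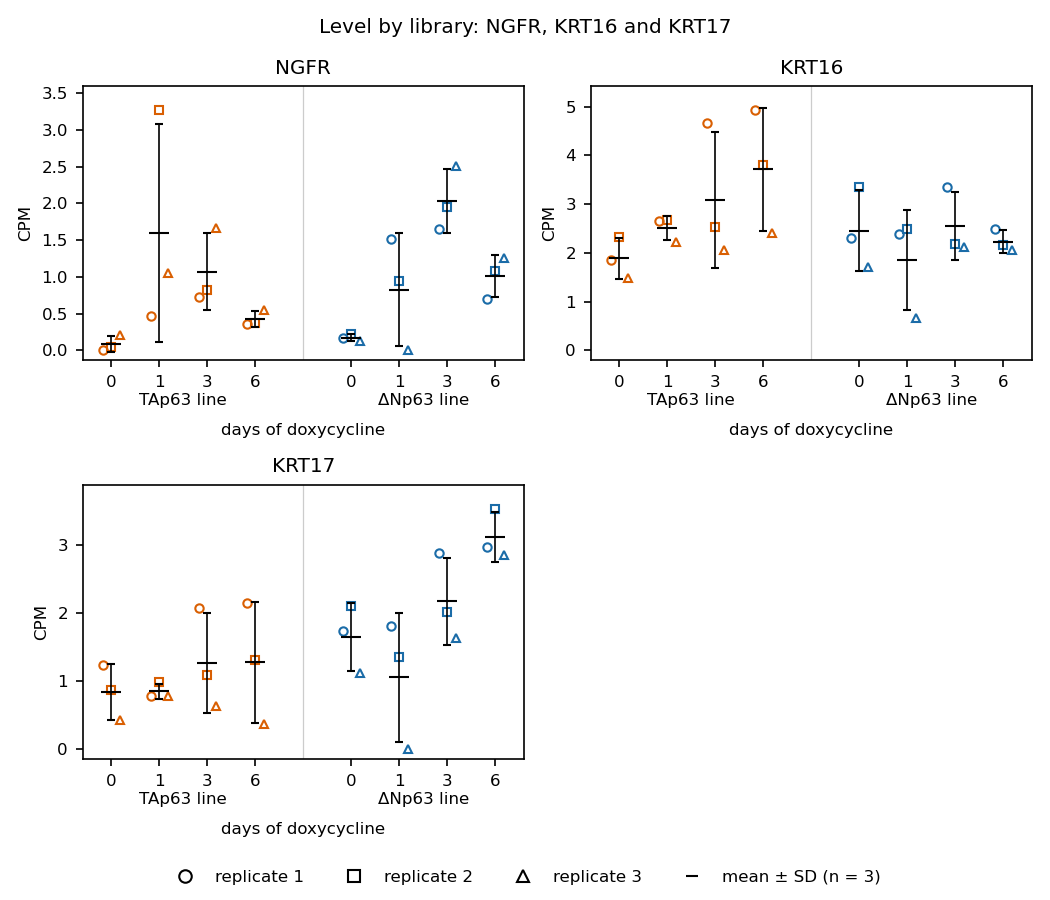
CPM of NGFR, KRT16 and KRT17 (vertical axes) by days of doxycycline in the TAp63 line (orange, left) and the ΔNp63 line (blue, right), 1 symbol per library by replicate number, with mean ± SD of n = 3. NGFR was lower at day 6 than at day 3 in every library of both lines, and KRT16 averaged 3.72 CPM at day 6 of TAp63 and 2.23 CPM at day 6 of ΔNp63.

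From day 3 to day 6 none of the 7 was called in either line, with 0% of all genes called in the TAp63 line and 0.0128% in the ΔNp63 line. At an unadjusted p under 0.05, 0 of the 7 passed in the TAp63 line and 1 in the ΔNp63 line, and DESeq2 called the same numbers. KRT5 had the largest late step in the ΔNp63 line, 1.58 ± 0.32. This step was called with the replicate number as a block (1.58) and without ΔNp63 day 1 replicate 3 (1.58). The compared groups alone (1.55) and DESeq2 (1.57) also called it. Of 6 fits that each left out 1 library compared, 0 called it. TRIM29 (0.53 ± 0.28) and FAT2 (0.51 ± 0.28) were also higher at day 6 than at day 3 without overlap, and KRT15 (0.19 ± 0.35) and KRT17 (0.52 ± 0.49) overlapped.

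**Figure D3:**
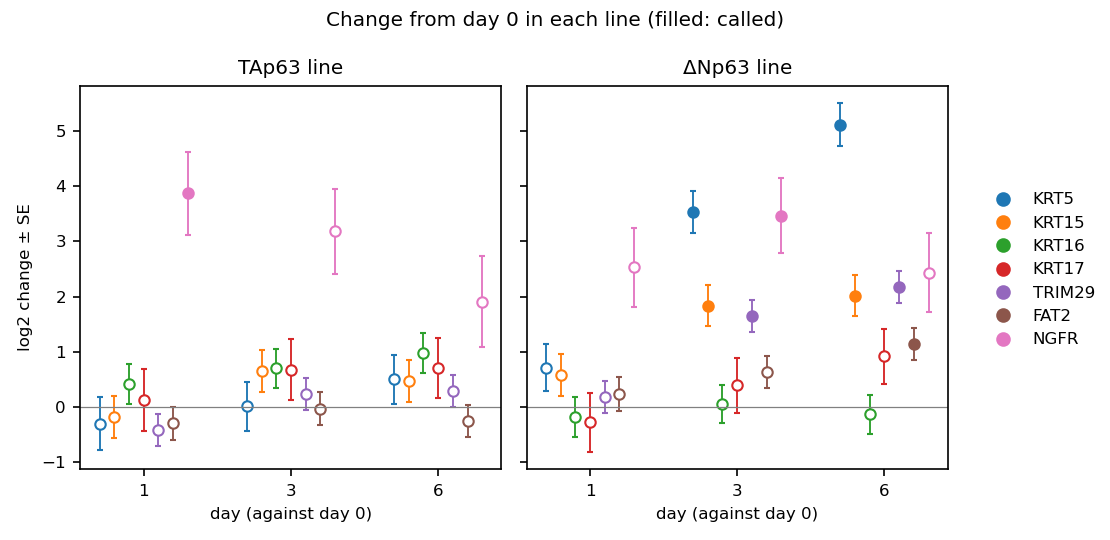
Log2 change from day 0 ± SE (vertical axes) at days 1, 3 and 6 in the TAp63 line (left) and the ΔNp63 line (right), with filled symbols for calls at an adjusted p under 0.05. The filled symbols are NGFR at day 1 of TAp63, 4 genes at day 3 and 4 genes at day 6 of ΔNp63, where KRT5 reached 5.11.

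The ΔNp63 day 1 sums given here include replicate 3, the library that stood apart. The summed level of the 7 genes was 40.1, 33.8, 51.6 and 51.4 CPM at days 0, 1, 3 and 6 of the TAp63 line and 41.2, 43.2 (SD 29.5), 130 and 186 CPM in the ΔNp63 line. Most of it was TRIM29: without it the sums were 13.4, 13.9, 20.5 and 19 CPM in the TAp63 line and 14.2, 15.7, 44.8 and 64 CPM in the ΔNp63 line. Over the 23 libraries without ΔNp63 day 1 replicate 3, the log2 levels of KRT5 and TRIM29 had a Pearson correlation of 0.943, KRT15 and TRIM29 0.906, and KRT5 and KRT15 0.872. KRT5 and KRT16 had -0.103. These libraries share their groups and the genes were chosen for this pattern, so the values only describe it.

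Other keratins were measured alongside. Their list and the lists below were chosen with earlier results of these data known. Of 51 further keratin genes, 6 had 0 counts in all libraries and 14 were tested. In the TAp63 line 0 of the 14 keratins were called at any day by edgeR, and the median change at day 6 was 0.23. KRT13, a type I keratin of esophageal suprabasal cells, came nearest, at 1.46 ± 0.33 on day 3 (edgeR adjusted p = 0.05029) and 1.24 ± 0.33 on day 6 (adjusted p = 0.1624), and it was called at day 6 with the replicate block (1.21), without ΔNp63 day 1 replicate 3 (1.26) and by DESeq2 (1.23). DESeq2 called 0, 1 and 1 keratin at days 1, 3 and 6 of the TAp63 line, and 0, 5 and 3 passed an unadjusted p under 0.05.

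At day 6 of the ΔNp63 line 4 of the 14 keratins were called higher and 0 lower (2.03% of all genes were called), with a median log2 change of 0.48. At day 3 only KRT13 was called (2.2% of all genes). KRT13 averaged 82.7 ± 23.8 CPM at day 6, against 8.43 ± 2.13 CPM at day 0 (SD, n = 3; log2 change 3.31 ± 0.34, edgeR adjusted p = 3.823e-06). KRT4, its type II partner, averaged 5.88 ± 1.68 CPM at day 6, against 0.728 ± 0.131 CPM at day 0 (3.01 ± 0.52, edgeR adjusted p = 0.001689). The simple-epithelial KRT19 averaged 457 ± 64 CPM at day 6, against 264 ± 40.4 CPM at day 0 (0.79 ± 0.17, edgeR adjusted p = 0.01142). The hair keratin KRT85 averaged 1.16 ± 0.113 CPM at day 6, against 0.15 ± 0.143 CPM at day 0 (2.86 ± 0.69, edgeR adjusted p = 0.02951). The KRT85 call was made without 1 of the 6 libraries compared and lost without any of the other 5, and the KRT19 call was lost without day 6 replicate 1, day 0 replicate 2 or day 0 replicate 3. With the replicate block the counts of keratins called at day 6 were 2 in the TAp63 line and 7 in the ΔNp63 line, where 0.78% and 4.56% of all genes were called. Without ΔNp63 day 1 replicate 3 they were 2 and 6, where 0.976% and 4.97% of all genes were called.

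KRT14, the usual type I partner of KRT5, stayed at the limit of detection in every group, with 0 counts over the 3 libraries at day 6 of ΔNp63 and at most 4 counts in any group. KRT6A and KRT6B, type II partners of KRT16 and KRT17, had at most 2 counts in a group. The levels of these 3 genes allow no fold change. The simple-epithelial pair KRT8 and KRT18 was abundant throughout: KRT8 averaged 410 ± 47.3 CPM at day 6 of TAp63, against 344 ± 39.1 CPM at its day 0, and 536 ± 90.3 CPM at day 6 of ΔNp63, against 383 ± 63.9 CPM at its day 0 (SD, n = 3). The KRT8 change at day 6 was 0.49 ± 0.19 in the ΔNp63 line (edgeR adjusted p = 0.3109). Mean KRT18 lay between 172 and 225 CPM over the 8 groups. KRT8 and KRT18 overlap in the annotation, so fragments shared by both were not counted.

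**Figure D4:**
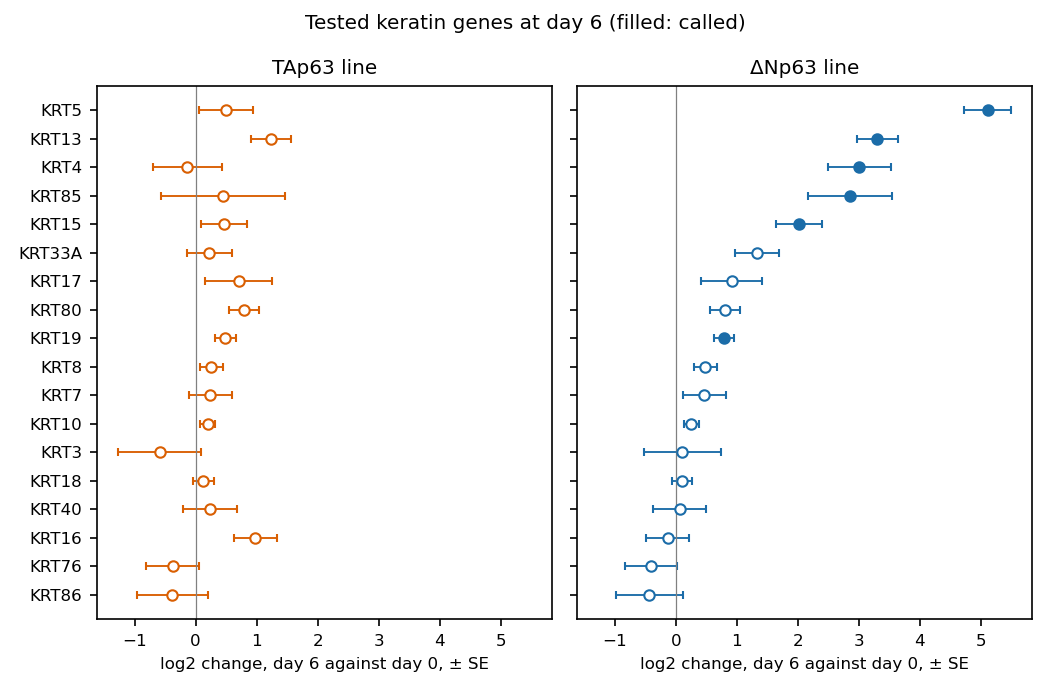
Log2 change at day 6 against day 0 ± SE (horizontal axes) of the 18 keratin genes tested, the 4 followed here among them, in the TAp63 line (left) and the ΔNp63 line (right), with filled symbols for calls at an adjusted p under 0.05. KRT5 at 5.11 and KRT13 at 3.31 stand highest in the ΔNp63 line, and no symbol is filled in the TAp63 line.

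Of 35 other genes of basal squamous cells (integrins, laminins, desmosomal proteins, transcription factors and receptors), 22 were tested. At days 1, 3 and 6 of the TAp63 line 0 of the 22 were called by edgeR, 3, 4 and 4 passed an unadjusted p under 0.05, and DESeq2 called 1, 1 and 0. At day 6 of the ΔNp63 line 1 was called higher and 1 lower (2.03% of all genes were called), with a median change of 0.23. The same pair was called at day 3 (2.2% of all genes). The calcium-binding protein gene S100A2 averaged 14.1 ± 2.91 CPM at day 6, against 4.1 ± 1.37 CPM at day 0 (SD, n = 3; log2 change 1.77 ± 0.38, edgeR adjusted p = 0.01329). ITGA6, the α6 chain of the hemidesmosome integrin, averaged 111 ± 4.8 CPM at day 6, against 194 ± 19.3 CPM at day 0 (-0.81 ± 0.20, edgeR adjusted p = 0.03941), but its count is uncertain because it overlaps the antisense gene ITGA6-AS1. The ITGA6 call was lost without any 1 of the 6 libraries compared, and the S100A2 call held without 2 of the 6. With the replicate block 0 were called at day 6 of TAp63 (0.78% of all genes) and 5 at day 6 of ΔNp63 (4.56%). Without ΔNp63 day 1 replicate 3 the counts were 1 (0.976% of all genes) and 4 (4.97%).

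Of 18 listed ligands, co-receptors and adaptors of NGFR found in the table, 12 were tested, and 0 were called by edgeR in any comparison with day 0 in either line. At an unadjusted p under 0.05, 2 passed at day 1 and 1 at day 3 of ΔNp63, and DESeq2 called 2 at day 1 of ΔNp63. Of these, SORCS1 was at 18.6 CPM in day 1 replicate 3, the library that stood apart, and at most at 0.723 CPM in the other 2 libraries of that day. Without replicate 3 the count at an unadjusted p under 0.05 was 0 at day 1 of ΔNp63. The median change of the 12 was -0.0213 at day 1 of TAp63 and -0.119 at day 3 of ΔNp63, the days at which NGFR was called. The FAT and Dachsous cadherins had 4 tested genes of 6, with 0 called by edgeR and a median of -0.258 at day 6 of ΔNp63, all 4 with negative values. At day 1 of ΔNp63 1 of the 4, FAT1, passed an unadjusted p under 0.05, with 1.23, 0.226 and 51.2 CPM in replicates 1, 2 and 3, and without replicate 3 the count was 0. DESeq2 called 0 of the 4 at every day.

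The genes with courses most like each of 4 members were sought among 14580 genes with a group mean of at least 1 CPM. Likeness was the Pearson correlation of log2(mean CPM + 0.5) over the 8 groups. For these correlations and the CPM that follow, the ΔNp63 day 1 mean was taken without replicate 3, the library that stood apart. KRT5 was followed most closely by ADAD2 (r = 0.997), which averaged 0.0755 CPM at day 6 of TAp63 and 1.21 CPM at day 6 of ΔNp63, by MPZL1 (0.996) and by LINC01605 (0.992). MPZL1 moved far less in size, at 80.9 CPM at day 6 of TAp63 and 94.7 CPM at day 6 of ΔNp63. Nearest to TRIM29 were CDH22 (0.995), CRAT (0.994) and DEPTOR (0.994), of which CDH22 averaged 106 CPM at day 6 of TAp63 and 241 CPM at day 6 of ΔNp63. KRT15 was most like NTN4 (0.989), SLC9A3R1 (0.988) and PLXNB3 (0.987). For NGFR they were ZBTB46 (0.976), LNCOC1 (0.974) and KCTD18 (0.967), and ZBTB46 averaged 6.13, 10.3, 8.95 and 8.04 CPM at days 0, 1, 3 and 6 of the TAp63 line and 5.89, 9.44, 10.8 and 8.79 CPM in the ΔNp63 line. These are likenesses among the highest of many genes over 8 points, and they are given with no test.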

How the data were processed

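The deposited values are raw counts per gene, not normalized. Per the file header, the authors counted paired fragments with featureCounts 2.0.0 over whole transcript spans of the UCSC refGene annotation of hg38, with no strand, multi-mapping or overlap option. The submitters' processing notes name HISAT2 2.1.0, featureCounts 1.6.1 and DESeq2. Counts were analysed here in R 4.3.3 with edgeR 4.0.16 (filterByExpr, TMM, glmQLFit, glmQLFTest) in 1 model of 8 group means with 16 residual degrees of freedom. Adjusted p-values are Benjamini-Hochberg over all 15642 genes tested. CPM uses TMM-adjusted library sizes, and the SE is the absolute log2 change over the square root of F. The 7 genes and the gene lists were chosen with earlier results of these data known. Other genes are named if they are TP63, a listed gene called at day 6, 1 of 5 keratins fixed by name, or among the 3 most alike. INSM1, CHGA, NEUROD1, SYP, EPCAM and CDH1 come from the marker lists, and HBG2, FAT1 and SORCS1 were named after their values were seen. Same-numbered libraries deviated together in all group pairs without ΔNp63 day 1 (r 0.16 to 0.689), and with that group r fell to -0.286. The main model held no replicate term, so its SE, calls and adjusted p-values take the libraries as unpaired. The replicate number entered as a block only in alternative fits. No replicates agreed within sampling noise (lowest chi-square per degree of freedom 5.35). The fit was tested on simulated counts. Promoters were read from the RefSeq table. Alternatives were DESeq2 1.42.0, RLE factors, no filter, the compared groups alone, a replicate block, and libraries left out. Some genes of the lists are not reported here.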

Additional observations from a re-analysis of the deposited data

Results flagged for a closer look

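The KRT5 response differed between the lines by the interaction of line and day, TAp63 minus ΔNp63, at day 3 (-3.52 ± 0.60) and at day 6 (-4.61 ± 0.59). KRT5 averaged 0.461 ± 0.288 CPM at day 3 and 0.711 ± 0.0597 CPM at day 6 of the TAp63 line, and 7.54 ± 0.513 CPM and 22.5 ± 3.46 CPM at the same days of the ΔNp63 line (SD, n = 3 each). The gene was chosen with this difference known, so it is a description. Single libraries were not tested as outliers within groups, since the test used needs at least 4 libraries per group.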

How the results depend on the processing

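No called change of the 7 genes reversed in any setting, but the number of them called moved by more than 1.5 times in at least 1 comparison under each kind of alternative except RLE factors and no filter. Without ΔNp63 day 1 replicate 3 it was 1 for day 6 against day 3 of ΔNp63 and 2 for each difference between the lines (days 3 and 6). With the replicate block it was 1 for day 6 against day 3 of ΔNp63 and 2 for the day 6 difference. With both, it was 2 (TAp63 day 3), 1 (TAp63 day 6), 2 (ΔNp63 day 1), 2 (ΔNp63 day 6 against day 3), 3 and 4 (differences at days 3 and 6). DESeq2 gave 1 (TAp63 day 3), 1 (ΔNp63 day 6 against day 3) and 2 (day 6 difference). With only the groups compared it was 0 (TAp63 day 1), 1 (ΔNp63 day 6 against day 3), 0 (day 3 difference) and 2 (day 6 difference). The 0 at TAp63 day 1 was not a test that failed: NGFR did not pass the filter on low counts in that fit and was not tested. Leaving out 1 library gave 0 to 1 for TAp63 day 1 and 0 for the day 3 difference, which had been 1. A tally joined the log2 changes of the 7 to the lists of genes most like KRT5, TRIM29, KRT15 and NGFR. Of its entries 1022 stayed the same and 55 moved. A log2 change counted as the same if it moved by less than the spread between replicates. Over all settings the counts of other keratins and other basal genes called at day 6 of TAp63, both 0, ran to 3 and 4. At day 6 of ΔNp63 these counts, 4 and 2, ran from 2 to 8 and from 0 to 10. The upper ends came with the block and ΔNp63 day 1 replicate 3 left out together, where 568 genes in all were called at day 6 of TAp63, against 69, and 2221 at day 6 of ΔNp63, against 318. Leaving out 1 library took uncalled day 6 changes of the TAp63 line across 0, from -0.52 to 0.25 for KRT4, from -0.65 to 0.88 for KRT85 and from -0.21 to 0.34 for S100A2. The cause was not tested. NGFR had at most 4 counts per library at day 0 of TAp63, so its fold changes there are imprecise.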
